A study of Mus musculus with 4 samples.

Results

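The genes described here are regulators of the choice between epithelial and mesenchymal character, measured in cells cultured from the mouse inner ear. They are 10 of the 24346 gene symbols in each file and were selected by name, with earlier results of these data known. The 6 mesenchymal members are Snai1, Snai2, Twist1, Twist2, Zeb1 and Zeb2, and the 4 epithelial members are Esrp1, Esrp2, Grhl2 and Elf3. RNA sequencing was done on 2 samples of cultured cells from the vestibular part of the inner ear, which senses gravity and head movement, and on 2 from the cochlea, which senses sound. The labels give mouse and inner ear for all 4 samples, with no strain, age, sex, allele, treatment or culture time, and they number the samples 1 and 2 in each group. The labels do not state that a group's samples are separate animals or cultures, so p-values measure the spread between these samples, which may be technical.

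Epithelia are sheets of cells held together by E-cadherin, claudins, desmosomes and a keratin network. Mesenchymal cells lack these contacts and make collagen matrix. SNAI and ZEB proteins are zinc finger repressors that bind E-box sequences in the promoters of epithelial genes, and TWIST proteins are basic helix-loop-helix factors of mesenchyme and of the skull. On the other side, GRHL2 and ELF3 activate epithelial genes, and the ESRP proteins are RNA-binding factors that select epithelial splice forms. In the inner ear the sensory and secretory epithelia arise from the otic placode, and the surrounding fibrocytes, cartilage and bone arise from periotic mesenchyme.

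Levels are in FPKM, a fragment count divided by transcript length and library size, so levels can be set side by side between genes. The FPKM totals lay between 479380 and 519122, and 12644 to 13094 genes per library had at least 1 FPKM. Where values come in pairs, library 1 is given first. How many fragments each library held is unknown. Among short noncoding RNA genes, whose values move in whole-fragment steps, the commonest ratio to vestibular library 1 was 0.899, 0.882 and 0.861 for vestibular 2, cochlear 1 and cochlear 2. This ratio was taken as the relative worth of 1 fragment. At the ratio itself lay 7 of 33, 5 of 32 and 8 of 36 such genes. At it or at a simple multiple of it within 0.1% lay 15, 16 and 25 of them. No counting interval can be given. A listed 0 may be a failed estimate, since the ribosomal protein gene Rpl26 has 0 in every library. Genes with a mean of at least 1 FPKM were tested (13200 genes), and all 10 regulators were among them.

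The libraries differed in their cell type markers. Markers of epithelium (9 genes) summed to 1027 and 104 FPKM for libraries 1 and 2 of the vestibular group and to 1988 and 2372 for those of the cochlear group. Vestibular 2 was the lowest library in 8 of these 9 genes, the exception being Cdh1. Macrophage markers (12 genes) summed to 8898, 6766 and 6820 FPKM in vestibular 1, vestibular 2 and cochlear 1 and to 24.7 in cochlear 2, which was the lowest library in 12 of 12. Cartilage markers (8 genes) stood at 4204 FPKM in vestibular 2 against 752, 192 and 191 in vestibular 1, cochlear 1 and cochlear 2. Collagen genes made up most of the vestibular 2 sum, with Col2a1 at 2365 FPKM. The cartilage markers Matn1, Hapln1 and Comp stood at only 0.105, 0.136 and 0.849 FPKM in vestibular 2. Melanocyte markers (6 genes) stood at 227 FPKM in vestibular 2, with Dct at 166. Their sums were 9.94, 8.06 and 4.76 in vestibular 1, cochlear 1 and cochlear 2. Fibroblast markers (8 genes) ran the other way from epithelium, at 3000 and 6261 FPKM with vestibular cells and 1384 and 898 with cochlear cells. The defining hair cell genes Pou4f3, Gfi1, Otof, Atoh1 and Tmc1 were near 0, at most 1.63 FPKM in any library. The other 3 hair cell genes listed, Myo7a, Myo6 and Espn, which other cells also use, stood at 5.81 to 13.4, 9.66 to 24.5 and 4.53 to 17.2 FPKM. In bulk cultures, fewer cells of a type and less RNA per cell cannot be told apart.

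**Figure D1:**
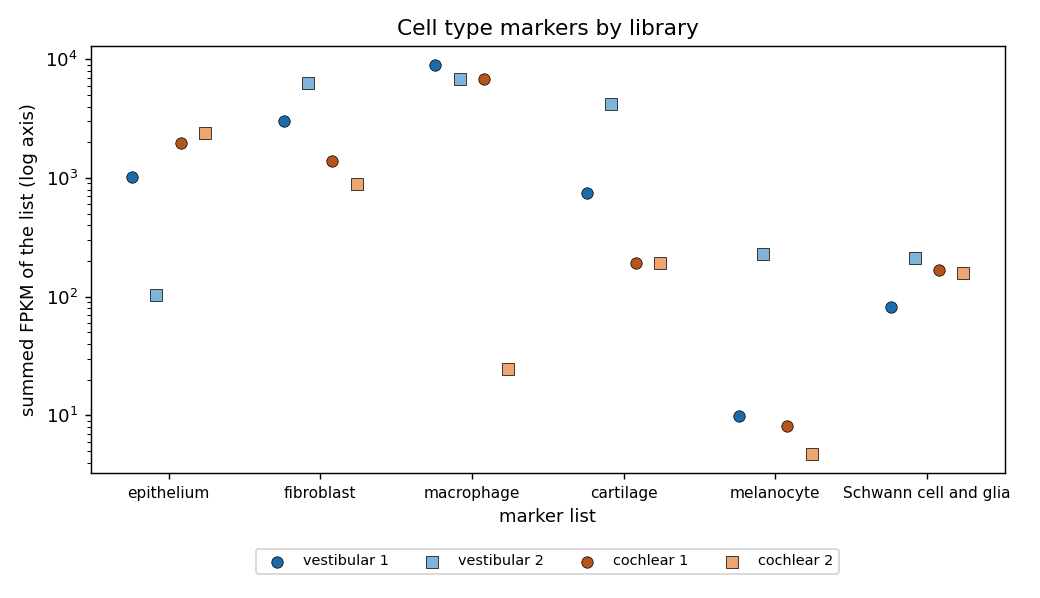
Summed FPKM (log axis) of 6 marker lists in each of the 4 libraries, 1 point per library. Vestibular 2 is low in epithelium markers (104) and high in melanocyte markers (227), and cochlear 2 is low in macrophage markers (24.7).

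Promoter sequences are shown first because the SNAI and ZEB proteins are known to recognise the E-box written CACCTG, or CAGGTG on the other strand. Windows from 250 bases before to 50 after the start of transcription came from RefSeq on GRCm38.p6. Of the 10 regulators, 5 matched that table (Snai1, Twist1, Twist2, Zeb2 and Elf3). The E-box was found in the windows of Snai1 and Elf3 and not in those of Twist1, Twist2 or Zeb2. Of 29 epithelial junction and keratin genes that were tested, 19 matched, and 16 of these 19 (84.2%) had the E-box in at least 1 window. The share over all symbols in the table was 22.6% (6098 of 27025), and over all windows 20.2% (6640 of 32851). The epithelial list was drawn up from genes repressed by SNAI and ZEB factors or marking epithelia. Its high share of E-boxes is thus not independent of how it was chosen. Among mesenchymal and matrix genes the E-box was found in 1 of 15. In the further lists described below it was in 1 of 6 other epithelial and 1 of 11 other mesenchymal regulators. It was in 1 of 9 splicing factors, 4 of 11 genes spliced by the ESRP proteins and 0 of 16 inducers, partners and inhibitors. The GRHL motif AACCGGTT, which reads the same on both strands, was in no window of the regulators or of these lists and in 0.146% of all windows. These are matches of letters in a window and not measured binding.

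The stretches below are shown because they hold E-boxes in front of a regulator (Snai1, Elf3) or of epithelial genes, outside every exon of GENCODE M21. They read 5′ to 3′ on the strand of the gene, and capitals mark the E-box. Snai1 (chr2:167538039-167538104, plus strand), Elf3 (chr1:135258577-135258642, minus), Krt18 (chr15:102027972-102028037, plus), Spint2 (chr7:29281978-29282081, minus), Rab25 (chr3:88548301-88548373, minus) and Ap1m2 (chr9:21312338-21312444, minus) are given.
Snai1: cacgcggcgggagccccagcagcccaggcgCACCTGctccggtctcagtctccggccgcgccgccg
Elf3: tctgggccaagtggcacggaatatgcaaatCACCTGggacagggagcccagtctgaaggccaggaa
Krt18: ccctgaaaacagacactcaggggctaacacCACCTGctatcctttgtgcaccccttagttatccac
Spint2: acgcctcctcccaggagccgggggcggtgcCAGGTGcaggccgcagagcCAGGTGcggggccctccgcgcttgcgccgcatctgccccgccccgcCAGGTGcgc
Rab25: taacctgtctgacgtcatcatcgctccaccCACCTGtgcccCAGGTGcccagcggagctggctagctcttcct
Ap1m2: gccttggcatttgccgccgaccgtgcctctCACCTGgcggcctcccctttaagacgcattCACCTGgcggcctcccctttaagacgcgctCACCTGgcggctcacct
Counted from the RefSeq start, the E-box begins 126 bases before Snai1 and 140 before Elf3, whose RefSeq start lies inside the GENCODE gene and so differs from the gene end given with its values. Spint2, which encodes an inhibitor of epithelial serine proteases, and Ap1m2, a sorting adaptor gene of polarised epithelia, each show 3 in the stretch given. In Rab25, a traffic GTPase gene of epithelia, the pair lies 64 and 53 bases before the start.

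The 4 epithelial regulators were higher in both cochlear libraries than in both vestibular libraries, with mean ratios of 3.50 to 5.06. The 6 mesenchymal regulators had a higher mean in the vestibular cultures, by ratios of 1.36 to 4.09, and for 4 of them the groups did not overlap, although Twist2 was higher there only with vestibular 2 included. In all, 8 of the 10 had groups without overlap, against 55.3% of all genes tested in either direction. None of the 10 passed limma's threshold (adjusted p under 0.05 over all 13200 genes, where 4 genes or 0.0303% passed, all of them higher in cochlear cultures). At an unadjusted p under 0.05 there were 4 of 4 epithelial regulators on the cochlear side, against 10.6% of all genes, and 3 of 6 mesenchymal regulators on the vestibular side, against 7.61%. Limma without a mean-variance trend also passed 0 of the 10. An exact 2-sided permutation test of 2 libraries against 2 cannot go below p = 0.333, and thus cannot pass any gene.

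**Figure D2:**
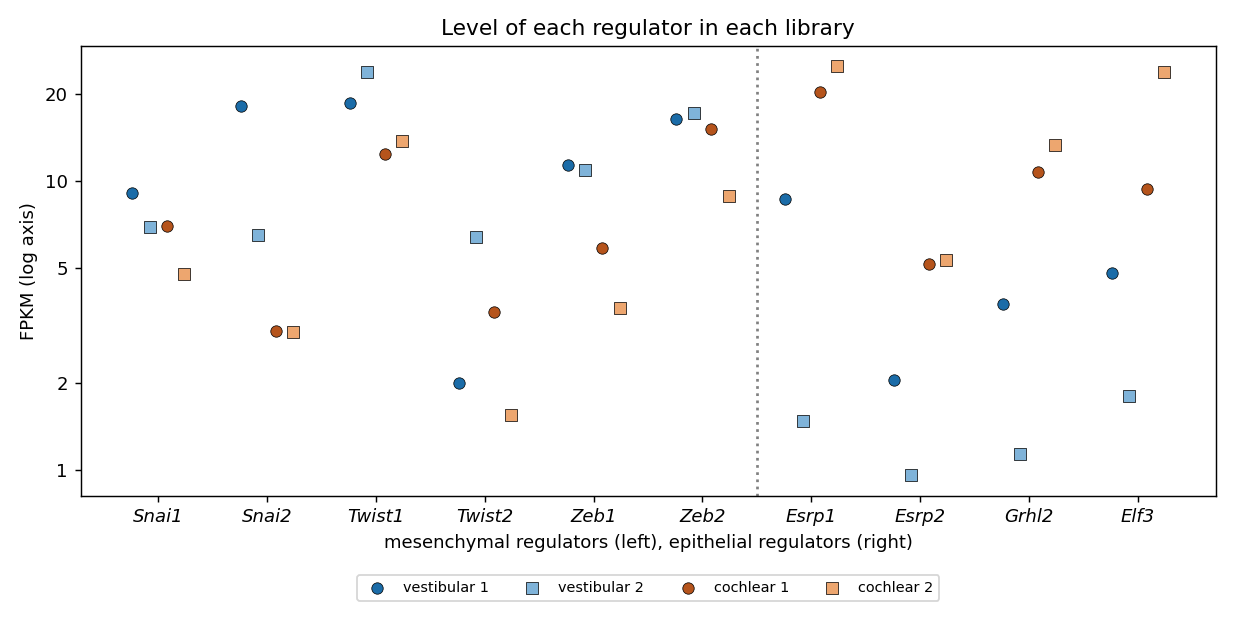
FPKM (log axis) of the 10 regulators, 1 point per library, mesenchymal members left of the dotted line and epithelial members right of it. All 4 epithelial members are lowest in vestibular 2, and the vestibular and cochlear points of Snai1 and Twist2 overlap.

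Esrp1, the ESRP paralog that is the principal epithelial splicing regulator in many tissues, stood at 8.66 and 1.48 FPKM for libraries 1 and 2 of the vestibular group and at 20.4 and 24.9 for those of the cochlear group. The cochlear libraries were alike, while the vestibular ones differed 5.86-fold from each other. Its log2 difference, vestibular minus cochlear on the log2(FPKM + 1) scale, was -2.27 (SE 0.74, limma adjusted p = 0.257), with a 95% interval from -4.37 to -0.16. It was -1.29 without vestibular 2 and -3.25 without vestibular 1. That scale understates the difference of low genes. Esrp1 lies on chromosome 4 at 11331933 to 11386783, minus strand of GRCm38, the assembly that mm10 names.

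Esrp2, its paralog with overlapping splice targets, stood at 2.04 and 0.955 FPKM with vestibular cells and at 5.17 and 5.31 with cochlear cells. The cochlear values were 1.03-fold apart, the tightest pair among the epithelial members. The log2 difference was -1.36 (SE 0.28, limma adjusted p = 0.180). Esrp2 (chromosome 8, 106130319 to 106136974, minus strand) overlaps Nfatc3 on the other strand, which had 19.0, 24.4, 14.6 and 16.7 FPKM across vestibular 1 and 2 and cochlear 1 and 2. It also overlaps the noncoding gene 1810019D21Rik on the other strand, which had 0.716, 0.415, 1.35 and 2.64 FPKM in the same order. The part of either gene in the Esrp2 values was not tested. The kit marks strand, but whether strand was used in counting is not given in the sources used here. Esrp1 exceeded Esrp2 in every library, 4.24-fold and 1.55-fold in vestibular libraries and 3.95-fold and 4.69-fold with cochlear cells.

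Grhl2, a grainyhead transcription factor gene that activates Cdh1 and other junction genes, stood at 3.76 and 1.13 FPKM with vestibular cells and at 10.8 and 13.3 with cochlear cells. The groups lay well apart, and the vestibular libraries differed 3.32-fold. Its log2 difference was -2.02 (SE 0.45, limma adjusted p = 0.189). It lies on chromosome 15 at 37233036 to 37363569, plus strand.

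Elf3, an epithelial ETS factor gene, stood at 4.78 and 1.80 FPKM with vestibular cells and at 9.39 and 23.9 with cochlear cells. Here the cochlear libraries also differed, 2.55-fold. The log2 difference was -2.00 (SE 0.61, limma adjusted p = 0.244). Elf3 is on chromosome 1 at 135253575 to 135258568, minus strand.

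In each of the 4 epithelial regulators vestibular 2 was the lowest library, as it was in 8 of 9 epithelium markers, and the part of those markers in the result was not tested. Without vestibular 2 the cochlear side remained higher, and the median log2 difference of the 4 went from -2.01 to -1.37. Between vestibular 1 and cochlear 1 alone, a pair chosen after seeing the data, it was -1.08, with no test.

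Zeb1, a zinc finger homeobox repressor of Cdh1, was level within the vestibular group, at 11.3 and 10.9 FPKM against 5.85 and 3.62 in the cochlear libraries. Both vestibular values were above both cochlear ones, with a mean ratio of 2.34. The log2 difference was 1.10 (SE 0.24, limma adjusted p = 0.188), with a 95% interval from 0.42 to 1.79. Zeb1 lies on chromosome 18.

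Zeb2, its paralog, which is also expressed in macrophages and in Schwann and pigment cell lineages, stood at 16.4 and 17.2 FPKM with vestibular cells and 15.2 and 8.84 with cochlear cells. Cochlear 1 was close to the vestibular libraries, and cochlear 2 stood apart. The log2 difference was 0.50 (SE 0.28, limma adjusted p = 0.422), and between vestibular 1 and cochlear 1 alone it was 0.11. It was 0.14 without cochlear 2 and 0.85 without cochlear 1. Cochlear 2 is also the library whose macrophage markers summed to 24.7 FPKM, against 6766 to 8898 in the others, and the part of macrophages in the Zeb2 values was not tested. Zeb2 (chromosome 2, 44983632 to 45117395, minus strand) overlaps the antisense gene Zeb2os, listed at 7.08, 4.65, 5.80 and 1.32 FPKM across vestibular 1 and 2 and cochlear 1 and 2. Zeb2 exceeded Zeb1 in all 4 libraries, by 1.45-fold and 1.58-fold in vestibular libraries and by 2.59-fold and 2.44-fold with cochlear cells.

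Twist1, a factor of cranial mesenchyme and osteoblast precursors, had the highest vestibular mean of all 10 regulators, at 18.6 and 23.8 FPKM against 12.4 and 13.7 in the cochlear libraries. The groups did not overlap, and the mean ratio was 1.62. Its log2 difference was 0.65 (SE 0.16, limma adjusted p = 0.213). Twist1 is on chromosome 12 at 33957671 to 33959829, plus strand.

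Twist2, its paralog of dermal and other mesenchyme, stood at 1.99 and 6.40 FPKM with vestibular cells and at 3.51 and 1.55 with cochlear cells. The groups overlapped, with the high value in vestibular 2. Its log2 difference was 0.47 (SE 0.59, limma adjusted p = 0.686), and without vestibular 2 the sign turned, to -0.18. It was 1.12 without vestibular 1, 0.88 without cochlear 1 and 0.06 without cochlear 2. Twist2 lies on chromosome 1 at 91801461 to 91848028, plus strand. Twist1 exceeded it 9.35-fold and 3.72-fold in vestibular libraries and 3.53-fold and 8.83-fold with cochlear cells.

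Snai2, which encodes the SLUG repressor of neural crest and mesenchyme, stood at 18.2 and 6.48 FPKM with vestibular cells and at 3.02 and 3.001 with cochlear cells. Both vestibular libraries were above the cochlear ones, and vestibular 1 was 2.81-fold above vestibular 2. The log2 difference was 1.58 (SE 0.51, limma adjusted p = 0.257), and it was 0.90 without vestibular 1 and 2.26 without vestibular 2. Snai2 is on chromosome 16 at 14705852 to 14709385, plus strand.

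Snai1, which encodes the SNAIL repressor, stood at 9.04 and 6.90 FPKM with vestibular cells and at 6.97 and 4.78 with cochlear cells. Vestibular 2 and cochlear 1 were level, so the groups overlapped. The log2 difference was 0.39 (SE 0.24, limma adjusted p = 0.452), with a 95% interval from -0.30 to 1.09. It was 0.16 without cochlear 2, 0.22 without vestibular 1 and 0.62 without cochlear 1. Snai1 is on chromosome 2 at 167538195 to 167542814, plus strand. The balance of the pair differed between libraries: Snai2 over Snai1 was 2.01 and 0.938 in vestibular libraries and 0.434 and 0.628 with cochlear cells. Snai3, the remaining SNAI paralog, was named after its values were seen. It had 0.227 and 0.0682 FPKM with vestibular cells and 1.20 and 2.22 with cochlear cells, below the mean needed for the test.

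**Figure D3:**
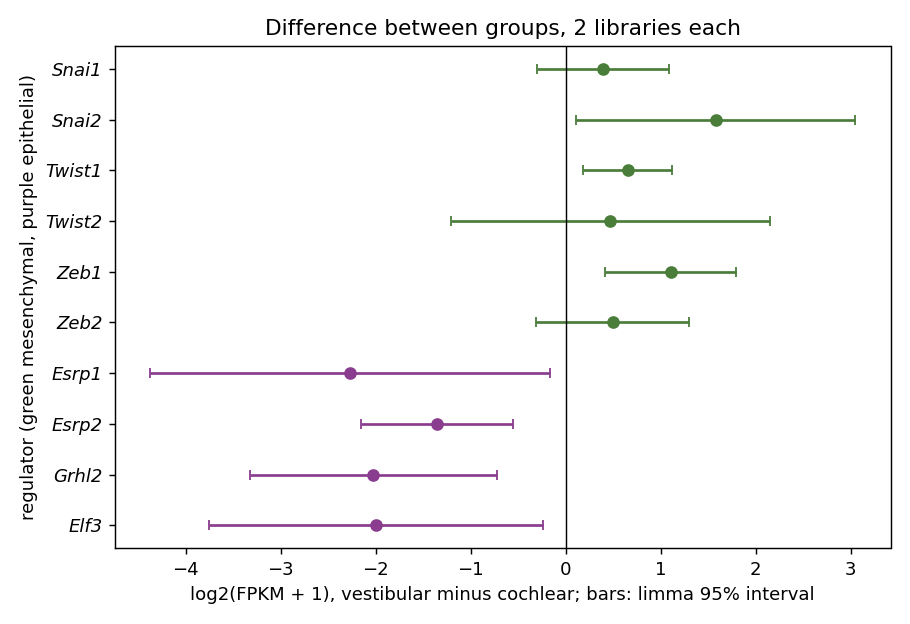
Log2 difference of each regulator, vestibular minus cochlear on the log2(FPKM + 1) scale, with limma's 95% interval (2 libraries per group). The intervals of the 4 epithelial members lie below 0, and those of Snai1, Twist2 and Zeb2 include 0; no member passed after adjustment.

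The order of the levels differed between the cultures. In the vestibular group the means ran from Twist1 (21.2 ± 3.63 FPKM, SD, n = 2) through Zeb2 (16.8 ± 0.517), Snai2 (12.3 ± 8.28), Zeb1 (11.1 ± 0.320) and Snai1 (7.97 ± 1.51) to Esrp1 (5.07 ± 5.08), Twist2, Elf3, Grhl2 and Esrp2 (1.498 ± 0.767). The 5 highest were all mesenchymal. Neighbours in this order whose library values did not overlap were Twist1 with Zeb2 and Zeb1 with Snai1, and the others overlapped.

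In the cochlear group the order was Esrp1 (22.7 ± 3.20 FPKM), Elf3 (16.7 ± 10.3), Twist1 (13.0 ± 0.921), Grhl2 (12.0 ± 1.76), Zeb2 (12.0 ± 4.46), Snai1 (5.87 ± 1.55), Esrp2 (5.24 ± 0.0976), Zeb1 (4.74 ± 1.58), Snai2 (3.01 ± 0.0135) and Twist2 (2.53 ± 1.39). Only Zeb2 with Snai1 and Zeb1 with Snai2 were neighbours without overlap. Twist1 and Zeb2 thus overlapped Grhl2 in the cochlear cultures. Against all genes tested, the means of the 10 over the 4 libraries lay between percentile 16.4 (Twist2) and percentile 60.8 (Twist1).

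By class, the mean log2(FPKM + 1) of the 6 mesenchymal members was 3.54 and 3.53 with vestibular cells and 2.95 and 2.54 with cochlear cells. That of the 4 epithelial members was 2.41 and 1.21 with vestibular cells and 3.49 and 3.96 with cochlear cells. The epithelial mean minus the mesenchymal mean was -1.12 and -2.31 with vestibular cells and 0.54 and 1.41 with cochlear cells. The vestibular libraries were level in the mesenchymal mean and apart in the epithelial one. The median log2 difference was 0.57 for the mesenchymal and -2.01 for the epithelial members, against 0.01 for all genes tested. Cochlear 2 was the lowest library in each mesenchymal member except Twist1, although Snai2 was nearly level between the cochlear libraries. Without cochlear 2 the mesenchymal median was 0.44. Macrophage markers were also lowest in cochlear 2, and their part in the mesenchymal result was not tested. Groups did not overlap in 4 of 6 mesenchymal members, all higher in vestibular, where 26.9% of all genes did so, and in 4 of 4 epithelial members, all higher in cochlear, where 28.4% did so. A mean ratio of at least 2 was seen in 4 of 4 epithelial members (7.68% of all genes on that side) and in 2 of 6 mesenchymal members (7.92%), Snai2 and Zeb1.

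**Figure D4:**
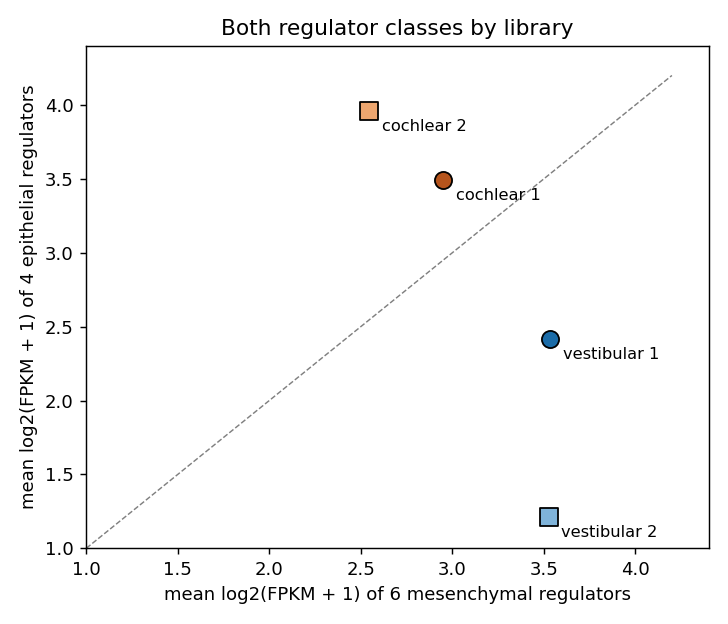
Mean log2(FPKM + 1) of the 4 epithelial regulators against that of the 6 mesenchymal regulators, 1 point per library, with the line of equality dashed. Both cochlear libraries lie above the line and both vestibular libraries below it, vestibular 2 farthest (epithelial minus mesenchymal -2.31).

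Among themselves, the 10 profiles were compared by the root-mean-square distance of their centred log2 values over the 4 libraries. Within the epithelial class the distances ran from 0.310 (Esrp1 with Grhl2) to 0.660 (Esrp1 with Esrp2). Within the mesenchymal class the closest were Snai1 and Zeb2 (0.176) and the farthest Snai2 and Twist2 (1.13). Between the classes the smallest distance was 0.897, Snai1 with Esrp2. No pair of paralogs was mutually closest. Zeb1 had Zeb2 as its closest member, but Zeb2 had Snai1. Zeb1 and Zeb2 were 0.311 apart, Twist1 and Twist2 0.490, and Snai1 and Snai2 0.711.

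The genes nearest to each member by the same measure, with a mean of at least 5 FPKM, are given as a description over 4 libraries. Nearest to Esrp1 were Ripk4, a kinase gene of epidermal differentiation (0.0620), Arhgef16 (0.0705) and Tmem184a (0.0911). Ripk4 stood at 6.33 and 0.676 FPKM with vestibular cells and 14.0 and 17.9 with cochlear cells. Nearest to Esrp2 were Pvr (0.0338), Prr15 and Pamr1, and nearest to Grhl2 were Gas2 (0.0678), Slc9a3r1, a scaffold gene of the apical membrane, and Myo5b, a motor gene of apical recycling. Elf3 had Col23a1 (0.138), Serpinb6b and Muc1, an epithelial mucin gene at 5.40, 1.71, 6.94 and 19.1 FPKM across vestibular 1 and 2 and cochlear 1 and 2. On the mesenchymal side Snai2 lay nearest to Slc16a4, a carboxylate transporter gene (0.0211; 16.3, 5.80, 2.52 and 2.60 FPKM in the same order), Coro6 and Col26a1. Zeb1 lay nearest to the linker histone gene Hist1h1c (0.0646), Cnrip1 and Gbp2, and Zeb2 to Xylt2 (0.0164), Dgkz and Sipa1l2. Twist1 had Entpd5 (0.0211), Kdelc1 and Ikbip, Twist2 had Gnb4 (0.0485), Ildr2 and Tcea3, and Snai1 had Zfp414 (0.0277), Incenp and Pomk.

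Epithelial junction and keratin genes, many of them known targets of SNAI and ZEB repression or of GRHL2 activation, had lower values in vestibular cultures in 29 of 29 tested, where 48.6% of all genes were on that side. Their median log2 difference was -2.14, near that of the 4 epithelial regulators. No gene of the list passed limma's adjusted threshold, 13 had an unadjusted p under 0.05 (10.6% of all genes on the cochlear side), and in 27 the groups did not overlap (28.4%). All 9 epithelium markers belong to this list, which is thus not separate from them. Without vestibular 2 the median was -1.14.

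Cdh1, the E-cadherin gene, stood at 32.2 and 33.9 FPKM with vestibular cells and at 122 and 146 with cochlear cells. Its log2 difference was -1.98 (SE 0.14, limma adjusted p = 0.0665). The vestibular libraries were level here, although Esrp1, Grhl2 and the keratins were lower in vestibular 2. The keratin gene Krt8 had 297 and 10.5 FPKM with vestibular cells and 663 and 687 with cochlear cells, and Krt18 had 305, 11.6, 628 and 719. Melanocytes also carry E-cadherin, and 5 of their 6 markers were highest in vestibular 2, Mitf being the exception. The markers summed to 227 FPKM there, with Dct at 166. The part of melanocytes in the Cdh1 value was not tested.

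Of the other junction genes, the claudin gene Cldn4 overlapped between groups, at 169 and 15.0 against 158 and 226 FPKM. Tjp3, a tight junction scaffold gene, had 3.74 and 1.89 against 13.8 and 17.0 FPKM, and Llgl2, a cell polarity gene, 11.1 and 6.55 against 28.2 and 30.3. Spint2 had 111 and 38.3 against 206 and 287 FPKM. By promoter, the 16 genes with the E-box had a median log2 difference of -2.19 (from -3.53 to -1.03), and the 3 without it -1.48 (from -2.96 to -0.52). Members with and without the E-box thus covered overlapping ranges.

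Mesenchymal and matrix genes had higher values in vestibular cultures in 28 of 30, where 51.4% of all genes were on that side, with a median log2 difference of 1.21. None passed the adjusted threshold, 19 had an unadjusted p under 0.05 on the vestibular side (7.61% of all genes), and 7 of the 8 fibroblast markers belong to the list. Cochlear 2 was the lowest library in 22 of the 30, and without it the median was 0.94. Cdh11, a cadherin gene of mesenchyme, stood at 205 and 225 FPKM with vestibular cells and 75.3 and 64.8 with cochlear cells (log2 difference 1.61, limma adjusted p = 0.0790). The gelatinase gene Mmp2 had 476 and 461 against 201 and 204 FPKM, and the collagen gene Col6a1 121 and 108 against 46.7 and 53.8. The collagen gene Col1a2 had 1140 and 3452 against 492 and 218, and Sparc, a matrix glycoprotein gene, 2235 and 5305 against 1132 and 1347. The fibronectin gene Fn1 overlapped, at 1323 and 595 against 1017 and 521 FPKM. Lgals1, which encodes galectin-1, was lower in the vestibular libraries, at 865 and 574 against 1685 and 933 FPKM.

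Of 21 other epithelial regulators, 9 passed the filter on low values, and 7 of these 9 had lower values in vestibular cultures (48.6% of all genes). The median log2 difference of the 9 was -0.58. On leaving out each library in turn it ran from -0.91 (without vestibular 1) to -0.50 (without cochlear 1). Of the 9, 4 had an unadjusted p under 0.05 (10.6% of all genes on the cochlear side) and 0 passed the adjusted threshold. Ovol2, a zinc finger repressor of mesenchymal genes, had 1.04 and 0.0937 FPKM with vestibular cells and 6.68 and 6.003 with cochlear cells. Grhl1, the paralog of Grhl2, had 0.803 and 0.584 against 3.70 and 3.58. Gata3, an otic and epithelial factor, had 1.53 and 5.70 against 50.0 and 40.9. Klf4 and Klf5, which epithelia share with other cells, overlapped between groups and were highest in vestibular 2, at 11.3 and 20.1 FPKM. Ovol1 was too low for the test, at 0.506 and 0.385 against 1.41 and 1.01 FPKM.

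Of 23 other mesenchymal regulators, 18 were tested, and 14 of the 18 had higher values in vestibular cultures (51.4% of all genes), with a median log2 difference of 0.42. At an unadjusted p under 0.05 there were 6 on that side (7.61% of all genes) and 1 on the other (10.6%), and 0 passed the adjusted threshold. Tbx15, a T-box gene of skeletal mesenchyme, had 8.88 and 12.6 against 0.852 and 0.752 FPKM, and the forkhead gene Foxc2 14.4 and 26.1 against 4.11 and 3.19. The homeobox gene Six2 had 33.5 and 36.4 FPKM with vestibular cells and 16.5 and 12.9 with cochlear cells. Prrx2 overlapped, at 66.1 and 49.6 against 60.2 and 71.9, and Tbx18, a gene of otic fibrocyte precursors, had 98.0 FPKM in vestibular 2, against 16.1, 22.9 and 23.0 for vestibular 1, cochlear 1 and cochlear 2.

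Of 11 tested splicing factors known to act with or against the ESRP proteins, 8 were on the vestibular side, against 51.4% of all genes (median log2 difference 0.20, or 0.10 without vestibular 1). None passed the adjusted threshold, and 2 of the 11 had an unadjusted p under 0.05, both on the vestibular side (7.61% of all genes on that side, 18.2% in either direction). Rbfox2, which favours mesenchymal splice forms, had 26.0 and 28.9 FPKM with vestibular cells and 20.6 and 20.4 with cochlear cells. Mbnl1, a muscleblind gene, had 48.1 and 98.9 against 32.4 and 20.9. Mbnl2, Ptbp1 and Hnrnpm had log2 differences of -0.05, 0.17 and 0.20. Genes whose transcripts the ESRP proteins splice were split by direction, 8 of 14 on the vestibular side (51.4% of all genes, median log2 difference 0.08, and -0.08 without cochlear 2). At an unadjusted p under 0.05 there were 4 on the cochlear side (10.6% of all genes) and 1 on the vestibular side (7.61%). None of them passed the adjusted threshold. Ctnnd1, the p120-catenin gene, had 123 and 135 FPKM with vestibular cells and 205 and 179 with cochlear cells, and the receptor gene Fgfr1 70.0 and 121 against 53.9 and 50.9. The files give 1 value per gene, so splice forms cannot be seen in them.

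Among 24 inducers, partners and inhibitors of the mesenchymal factors or of their signals, 15 were on the vestibular side (51.4% of all genes, median log2 difference 0.07). The count and the median thus mix genes of opposite roles. At an unadjusted p under 0.05 there were 3 on the vestibular side (7.61% of all genes) and 3 on the cochlear side (10.6%). The adjusted threshold was passed by 0 of them. Tgfb2, a ligand that induces SNAI and ZEB genes, was higher in the cochlear libraries, at 28.6 and 38.8 FPKM against 10.3 and 14.1 in the vestibular ones. Tgfbr2, which encodes a TGF-beta receptor, had 81.3 and 87.7 FPKM with vestibular cells and 62.4 and 42.0 with cochlear cells. The feedback inhibitor gene Smad7 had 9.65 and 7.78 against 13.5 and 14.3. Id3, which encodes an inhibitor of helix-loop-helix partners, had 238 and 301 against 190 and 166, and Id2 had 111 and 239 against 103 and 55.4. The microRNA genes of the miR-200, miR-205 and miR-203 families and Mir34a (8 symbols in the files) were listed at 0 in all 4 libraries. The libraries were made from selected mRNA, which mature microRNAs do not enter, so these values give no level for them.

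**Figure D5:**
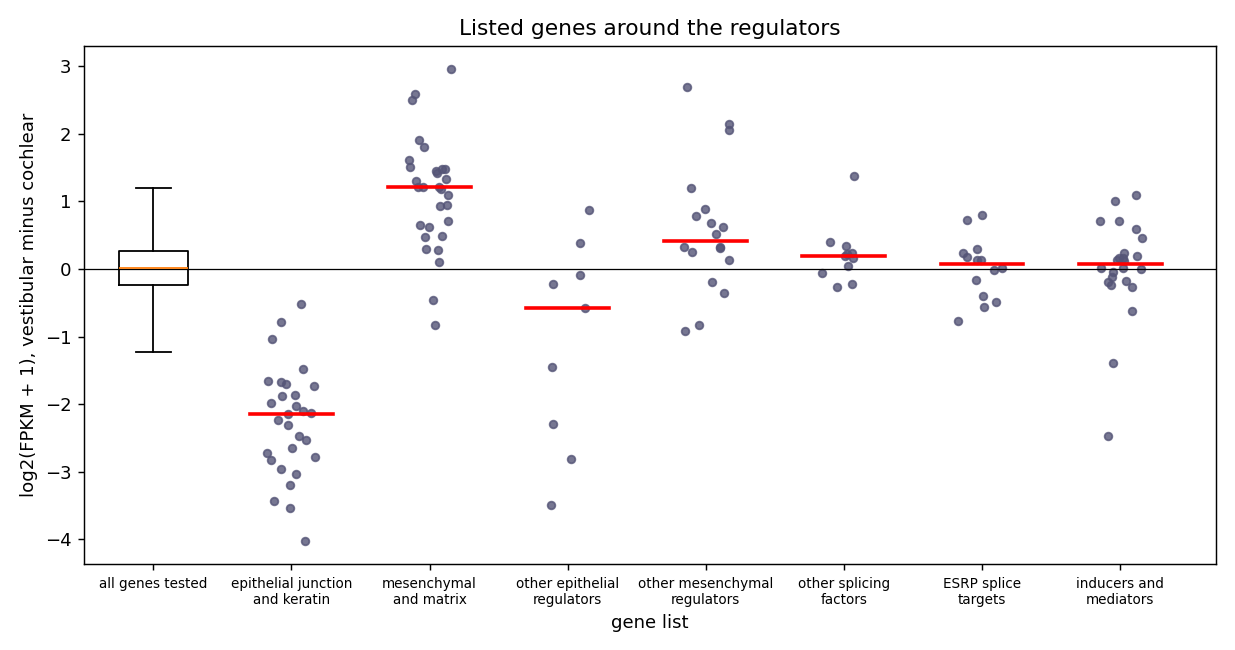
Log2 difference, vestibular minus cochlear on the log2(FPKM + 1) scale, of each tested gene in 7 lists (points) with the list median (red line), beside all 13200 genes tested (box, quartiles and median; whiskers at percentiles 5 and 95). Epithelial junction genes lie below 0 (median -2.14) and mesenchymal and matrix genes mostly above it (median 1.21). The splicing lists and the list of inducers and mediators, which also holds inhibitors, centre near 0.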

How the data were processed

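The deposited files hold FPKM, 1 value per gene symbol and sample, per the file headers. Per the submitters' processing notes, the authors used Cuffdiff 2.2.1, TopHat2 2.1.1, SAMtools 0.1.18 and Bowtie2 2.2.8 with the mm10 genome; libraries came from a stranded mRNA kit, per the labels' protocols. The sources used here give no settings, annotation, strand use or between-sample scaling. FPKM depends on the transcript model. Here log2(FPKM + 1) was fitted with limma 3.58.1 in R 4.3.3 (trend, 2-sided) over genes whose mean FPKM was 1 or more, with Benjamini-Hochberg adjustment over all genes tested and a threshold of 0.05. Prior degrees of freedom were 1.71. On data simulated for this comparison (13200 genes, 200 changed), limma recovered 0% of changes of log2 1, 49.1% of 2 and 80.0% of 4. False calls per simulation were 0, 5.4 and 7.8 in the same order. These shares pool all changed genes. They do not give the chance of finding a given regulator, since the spread differed between genes. Among the epithelial members the SE ran from 0.28 (Esrp2) to 0.74 (Esrp1). From each list the 4 genes of highest mean FPKM and the 3 of smallest p could be named, plus for each member the 3 nearest genes. Rab25, Ap1m2, Ovol1, Snai3, Rpl26, Matn1, Hapln1, Comp, the hair cell genes and genes overlapping a member were named outside that rule. The members and lists were chosen with earlier results of these data known. Alternatives were other pseudocounts (0.1, 5), filters, scalings, no trend, a block and leaving out libraries. Gene positions came from GENCODE M21.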

Additional observations from a re-analysis of the deposited data

How the results depend on the processing

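No alternative brought any of the 10 regulators past the threshold. Over all genes, limma's count of 4 (each higher in cochlear cultures) became 2 with no filter on low values, 0 with the replicate block and 0 on leaving out any single library. Every member kept its direction under every alternative that gave it a value (none for Esrp2 and Twist2 with a mean FPKM of at least 5), except Twist2, which was -0.18 without vestibular 2 (up to 1.12 on leaving out the others in turn) and -0.59 between vestibular 1 and cochlear 1 alone. In that pair, which has no test, the epithelial median moved to -1.08. The median of the ESRP-spliced genes turned to -0.08 without cochlear 2 (up to 0.12 on leaving out the others) and to -0.10 in that pair. On leaving out each library in turn the epithelial median ran from -2.56 to -1.37 and the mesenchymal from 0.44 to 0.87. A pseudocount of 5 gave an epithelial median of -1.27. A library left alone in its group was given the spread of the other group. Scaling to TPM shifted the median of all genes by -0.05. Same-numbered libraries deviated together with a correlation of 0.0432 across genes, and the labels do not say that numbers mark a shared animal or day. With the replicate block 0 members passed, and 5 had an unadjusted limma p under 0.05, against 4 epithelial and 3 mesenchymal members in the main fit. The unknown fragment number limits the low values, Esrp2 and Twist2 most.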
